A study of Mus musculus with 6 samples.

Results

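Blood vessel endothelial identity genes were followed in mouse ovaries that lacked selenium-binding protein 1 and in ovaries that had it. The group holds 10 genes, chosen by name as well-known markers of the endothelium: Pecam1, Cdh5, Esam, Cldn5, Egfl7, Emcn, Eng, Robo4, Sox17 and Sox18. All 10 had at least 1 probe under their own symbol, with 11 probes in all because Sox17 had 2, out of 39429 probes on the array. All 11 were among the 24415 probes, for 19412 genes, that were kept for testing.

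Ovaries came from SeBP1 knockout mice (3 samples) and from wild-type mice (3 samples). Both genotypes were female, 20 weeks old and on the C57BL/6J background, and the labels name no treatment and do not say how the SeBP1 allele was deleted. RNA of each sample was labelled with the dye Cy3 and hybridised to 1 single-colour Agilent whole-genome array, which gives a spot brightness for each probe. Nothing in the labels states that the arrays come from different animals, and the p-values below reflect the spread among these 6 samples, which may be partly technical. Whole ovary was profiled, so fewer endothelial cells and less RNA per endothelial cell cannot be told apart.

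Endothelial cells line every blood vessel and are held to each other by adhesion and junction proteins that other cells largely lack. Their identity is set by transcription factors of the ETS and SOX families, which act on the promoters and enhancers of such genes. In the ovary, vessels run in the stroma and theca and grow into each corpus luteum, the gland that forms after ovulation, which is among the most densely vascularised tissues of the adult.

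Sequence before the annotated transcription start is shown for the members that the RefSeq promoter table holds (build GRCm38.p6). Many endothelial promoters carry ETS sites, and whether the sequences shown have a part in the members' levels was not tested. The table held 5 of the 10 members: Cldn5, Egfl7, Emcn, Eng and Robo4, in 7 windows because Egfl7 has 3 starts. Each run below is the 250 bases before a start, 5′ to 3′ on the gene's strand, with AGGAAG, an ETS-type core, or its reverse CTTCCT in capitals.
Eng (chr2:32646345-32646594, plus strand): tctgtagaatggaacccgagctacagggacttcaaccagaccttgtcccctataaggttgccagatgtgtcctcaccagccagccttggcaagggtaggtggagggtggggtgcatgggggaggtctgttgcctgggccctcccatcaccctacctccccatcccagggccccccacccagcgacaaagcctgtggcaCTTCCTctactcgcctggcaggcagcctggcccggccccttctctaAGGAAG
Emcn (chr3:137340828-137341077, plus strand): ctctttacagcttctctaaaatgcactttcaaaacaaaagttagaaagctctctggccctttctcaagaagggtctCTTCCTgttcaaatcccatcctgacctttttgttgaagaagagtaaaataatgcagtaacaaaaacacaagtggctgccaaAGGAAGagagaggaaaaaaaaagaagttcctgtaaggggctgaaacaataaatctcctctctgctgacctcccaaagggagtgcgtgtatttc
Robo4 (chr9:37401722-37401971, plus strand): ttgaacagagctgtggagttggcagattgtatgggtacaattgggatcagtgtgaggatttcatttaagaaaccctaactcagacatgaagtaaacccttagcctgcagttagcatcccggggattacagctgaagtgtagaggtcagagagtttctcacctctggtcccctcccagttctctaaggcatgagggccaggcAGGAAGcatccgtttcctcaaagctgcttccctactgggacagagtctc
Egfl7 (chr2:26583615-26583864, plus strand): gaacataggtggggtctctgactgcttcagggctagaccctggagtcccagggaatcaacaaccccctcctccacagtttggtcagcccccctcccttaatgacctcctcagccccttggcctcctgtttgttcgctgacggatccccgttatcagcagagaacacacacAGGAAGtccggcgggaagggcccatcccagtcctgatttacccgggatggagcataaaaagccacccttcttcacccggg
Cldn5 (chr16:18776597-18776846, plus strand): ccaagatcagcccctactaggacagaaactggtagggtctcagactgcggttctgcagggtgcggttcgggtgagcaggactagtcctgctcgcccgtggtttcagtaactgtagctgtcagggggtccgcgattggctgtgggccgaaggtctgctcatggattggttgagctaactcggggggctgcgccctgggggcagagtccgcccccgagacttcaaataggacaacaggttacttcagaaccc

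AGGAAG, searched on both strands, was present in 5 of the 7 windows and in 4 of the 5 genes, against 29.5% of all 32851 windows of 250 bases in the table. Counting back from the start as position -1, Eng had it at -6 to -1 and, on the opposite strand, at -52 to -47. Emcn had it at -93 to -88 and, reversed, at -174 to -169. Robo4 carried 1 copy at -49 to -44 and the printed Egfl7 window 1 copy at -80 to -75. The windows of the other Egfl7 starts, not printed, held 3 copies and 0 copies, and the Cldn5 window held none. The SOX-type motif AACAAT occurred in the Emcn window only (-50 to -45), against 9.42% of all windows. AGATAA, 1 of the forms that factors of the GATA family bind and the only form searched, occurred in 0 of the 7, against 9.99%. These matches describe letters in a window and say nothing about binding.

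The deleted gene was looked at first. Selenbp1, the gene of the SeBP1 protein, had a log2 level of -0.11, 0.02 and -0.37 in the knockout ovaries, against 2.68, 2.52 and 2.59 in the wild-type ovaries. Levels here are log2 of the processed spot intensity minus the 75th percentile of the same array, so that 0 is the 75th percentile and 1 unit is a doubling. The knockout minus wild-type difference was -2.75 (SE 0.13, limma adjusted p = 0.0104), and the labelled genotypes did not overlap. The adjusted p was above 0.05 in 8 of 17 alternatives, among them when knockout replicate 1 (0.141), knockout replicate 3 (0.0631), wild-type replicate 1 (0.167) or wild-type replicate 2 (0.144) was left out, with slide as a fixed block (0.0792), on slide 2 alone (0.347) or with no filter on background (0.0824), while the difference stayed between -2.84 and -2.64. Whether its probe lies in the deleted stretch is not stated in the labels. Selenbp1 was the 1 gene called over all probes at an adjusted p under 0.05, which is 0.0041% of 24415 probes. At an unadjusted p under 0.05, 3.95% of the probes passed.

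Arrays differed in quality and in slide. Wild-type replicates 1 and 2 lay on slide 1. All 3 knockouts and the remaining wild type lay on slide 2, and the scans were split in the same way. Between 63.9% and 69.3% of the spots on the knockout arrays were well above background, against 61.6% to 67.8% on the wild-type arrays. The 75th percentile of intensity lay between 1493 and 1659 in knockout and between 1309 and 1759 in wild type. Both lowest values belonged to wild-type replicate 3, whose replicate spots also varied most (median coefficient of variation 5.45%, against 2.07% to 2.70% on the other arrays). The ovary markers Foxl2, Fshr, Cyp19a1, Amh, Inha, Zp3 and Gdf9 were all kept, and all 11 probes of the endothelial members were well above background on all 6 arrays.

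None of the 10 members passed the test between SeBP1 knockout and wild-type ovaries. The number called was 0 of 10, with 0 at an unadjusted p under 0.05 as well, read against the 0.0041% and 3.95% of all probes above. In none of the 10 did the 3 knockouts lie wholly above or below the 3 wild types, a separation seen in 8.66% of the probes measured on all arrays (3.97% with the knockouts above, 4.69% with the knockouts below). In 6 members the knockout mean was the higher and in 4 the lower, with a median difference of 0.093, against a median of -0.017 over all 19412 genes. The differences ran from -0.24 for Sox17 to 0.28 for Cldn5, and every adjusted p in the limma fit over all probes was 1.00.

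**Figure D1:**
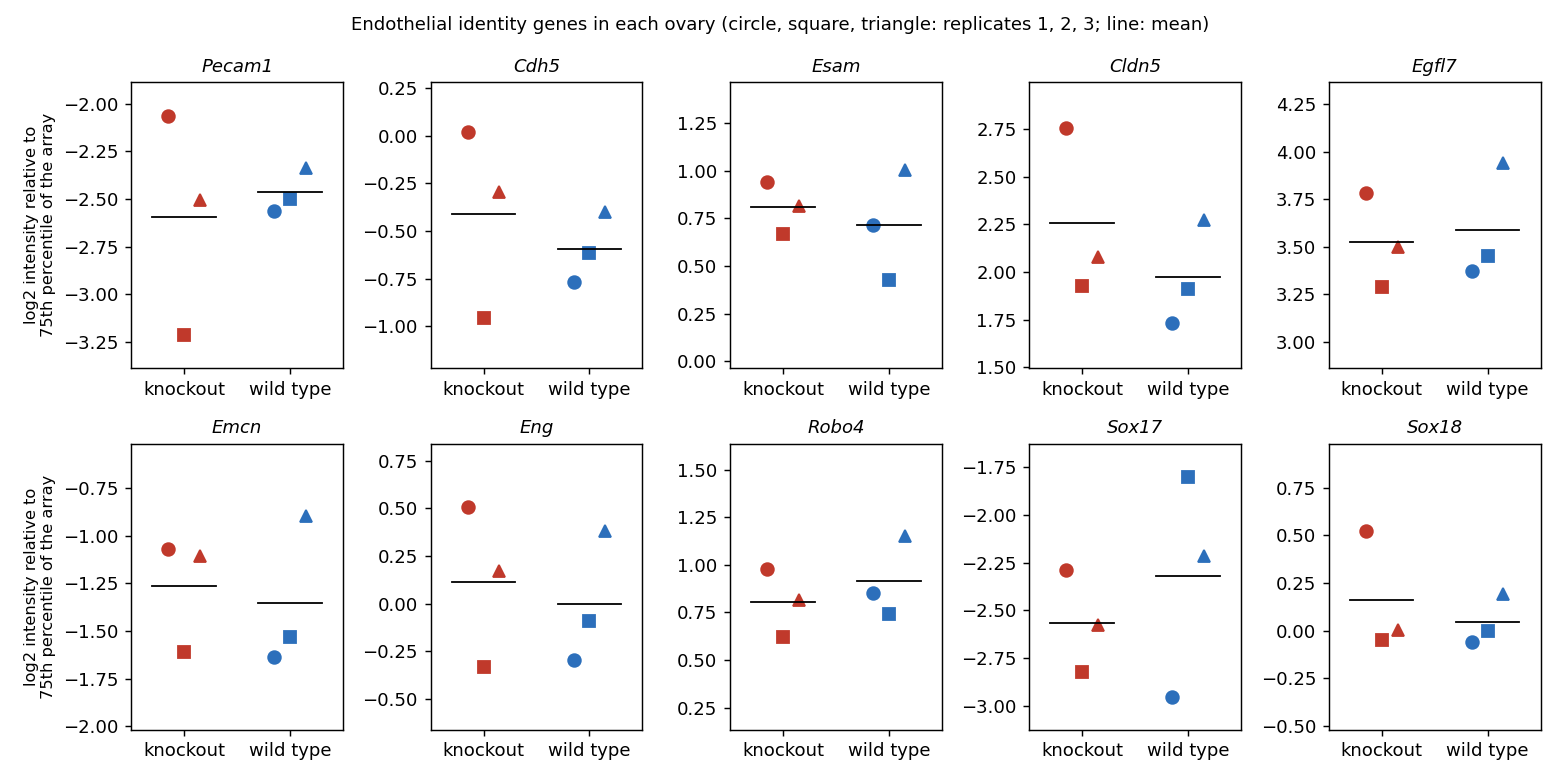
Level of each of the 10 genes in each ovary, as log2 intensity relative to the 75th percentile of its array; red points are the 3 knockout and blue points the 3 wild-type ovaries, the marker shape gives the replicate number and the line the genotype mean. The genotypes overlap in every panel; each panel starts at its own value, and all panels cover the same span in log2 units.

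Adhesion molecules at the contacts between endothelial cells come first. Cdh5, or VE-cadherin, is the cadherin of the endothelial adherens junction. Its level was 0.02, -0.96 and -0.29 in the knockout ovaries, against -0.77, -0.61 and -0.40 in the wild-type ovaries (probe A_52_P248604, mm9 chr8:106668159-106668218, plus strand). The highest and the lowest of the 6 values were both knockouts, so the wild types lay within the knockout range. The difference was 0.18 (SE 0.26, 95% interval -0.44 to 0.81).

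Pecam1, or CD31, is an immunoglobulin-family molecule of endothelial contacts that platelets and leukocytes also carry. It measured -2.06, -3.21 and -2.50 in the knockout ovaries, against -2.56, -2.50 and -2.33 in the wild-type ovaries (probe A_55_P2087087, mm9 chr11:106540864-106540923, minus strand). Knockout replicates 1 and 2 again enclosed all other values, and the SD among knockouts was 0.58, against 0.12 among wild types. The mean difference was -0.13 (SE 0.29, 95% interval -0.82 to 0.56).

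Esam is an adhesion molecule of endothelial tight junctions. Its values were 0.94, 0.67 and 0.81 in the knockouts, against 0.72, 0.43 and 1.00 in the wild types (probe A_55_P2125811, mm9 chr9:37345795-37345854, plus strand). Here the wild types enclosed the knockouts, with wild-type replicate 2 the lowest, and the difference was 0.09 (SE 0.17, 95% interval -0.32 to 0.51). Cldn5 encodes claudin-5, the claudin of endothelial tight junctions. It had 2.76, 1.93 and 2.08 in the knockouts, against 1.73, 1.91 and 2.27 in the wild types (probe A_51_P189814, mm9 chr16:18778046-18778105, plus strand). Knockout replicate 1 stood above each other ovary, and the difference of 0.28 (SE 0.25, 95% interval -0.33 to 0.90) was the highest among the members.

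Surface and secreted proteins of the vessel wall form the next group. Egfl7 is a matrix-bound factor that endothelial cells secrete and that guides the forming of the vessel lumen. It measured 3.78, 3.29 and 3.50 in the knockouts, against 3.37, 3.45 and 3.94 in the wild types (probe A_55_P2111355, mm9 chr2:26448142-26448201, plus strand). Wild-type replicate 3 was highest and knockout replicate 2 lowest, with a difference of -0.06 (SE 0.20, 95% interval -0.55 to 0.42). Emcn, or endomucin, is a sialomucin of the surface of capillary and venous endothelium. Its values were -1.07, -1.61 and -1.11 in the knockouts, against -1.64, -1.53 and -0.90 in the wild types (probe A_55_P1988048, mm9 chr3:137086389-137086448, plus strand). Wild-type ovaries held both the highest and the lowest value, and the difference was 0.09 (SE 0.25, 95% interval -0.50 to 0.69).

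Eng, or endoglin, is a co-receptor for TGF-beta family ligands, above all BMP9 and BMP10. It had 0.51, -0.33 and 0.17 in the knockouts, against -0.29, -0.09 and 0.38 in the wild types (probe A_55_P2040936, mm9 chr2:32537268-32537327, plus strand). Knockout replicate 1 and wild-type replicate 3 were the highest and knockout replicate 2 and wild-type replicate 1 the lowest, and the difference was 0.12 (SE 0.27, 95% interval -0.52 to 0.76). Robo4 is the roundabout receptor of endothelium and stabilises the vessel barrier. It measured 0.98, 0.62 and 0.82 in the knockouts, against 0.85, 0.74 and 1.15 in the wild types (probe A_55_P2036026, mm9 chr9:37221547-37221606, plus strand). Its difference was -0.11 (SE 0.16, 95% interval -0.48 to 0.27), and its spread within genotypes, 0.20, was the smallest of the members.

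Transcription factors of the SOXF subfamily close the set. Sox18 acts in endothelial and lymphatic development. It had 0.52, -0.05 and 0.01 in the knockouts, against -0.06, 0.00 and 0.19 in the wild types (probe A_51_P472274, mm9 chr2:181404789-181404848, minus strand). Knockout replicate 1 was the highest, followed by wild-type replicate 3, with a difference of 0.12 (SE 0.18, 95% interval -0.32 to 0.55). Sox17 acts in arterial endothelium, and also in endoderm and in the epithelium of the female reproductive tract. Its brighter probe (A_55_P2157023, mm9 chr1:4481503-4481562, minus strand) read -2.29, -2.83 and -2.58 in the knockouts, against -2.95, -1.80 and -2.21 in the wild types. Its other probe (A_55_P2094706, mm9 chr1:4481038-4481097, minus strand) read -2.51, -2.87 and -2.87 in the knockouts, against -3.18, -1.79 and -2.73 in the wild types. Both probes put wild-type replicate 2 highest and wild-type replicate 1 lowest, and over the 6 arrays they correlated at r = 0.921 (exact permutation p = 0.00417). The difference was -0.24 (SE 0.31, 95% interval -0.98 to 0.50) by the brighter probe and -0.19 (SE 0.35) by the other. Probe positions are in mm9, per the file headers, while the printed promoters are in GRCm38.p6, and the exon or untranslated region under each probe was not worked out here.

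Because slide 1 held no knockout, the comparison within a slide could be made on slide 2 only, between the 3 knockouts and wild-type replicate 3. In the scaled values, all 10 members were lower in the knockouts there. The median difference was -0.26, from -0.41 for Egfl7 and -0.36 for Emcn to -0.01 for Cdh5. None was called (lowest limma adjusted p 0.846, for Egfl7), and the comparison rests on a single wild-type array, on which all 10 members were above their own mean over the 6 arrays. In the scaled values, the direction of the 6 members that were higher in the knockout over all arrays therefore turned within slide 2. Without scaling between arrays, 4 of the 10 members were above their own mean in wild-type replicate 3. The mean deviation over the members was then 0.41, -0.38 and 0.11 in the knockouts, against -0.02 in wild-type replicate 3. With scaling it was 0.34, -0.31 and 0.02, against 0.24. Differences within slide 2 were not computed without scaling. Whether slide had a part in these values was not tested.

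**Figure D2:**
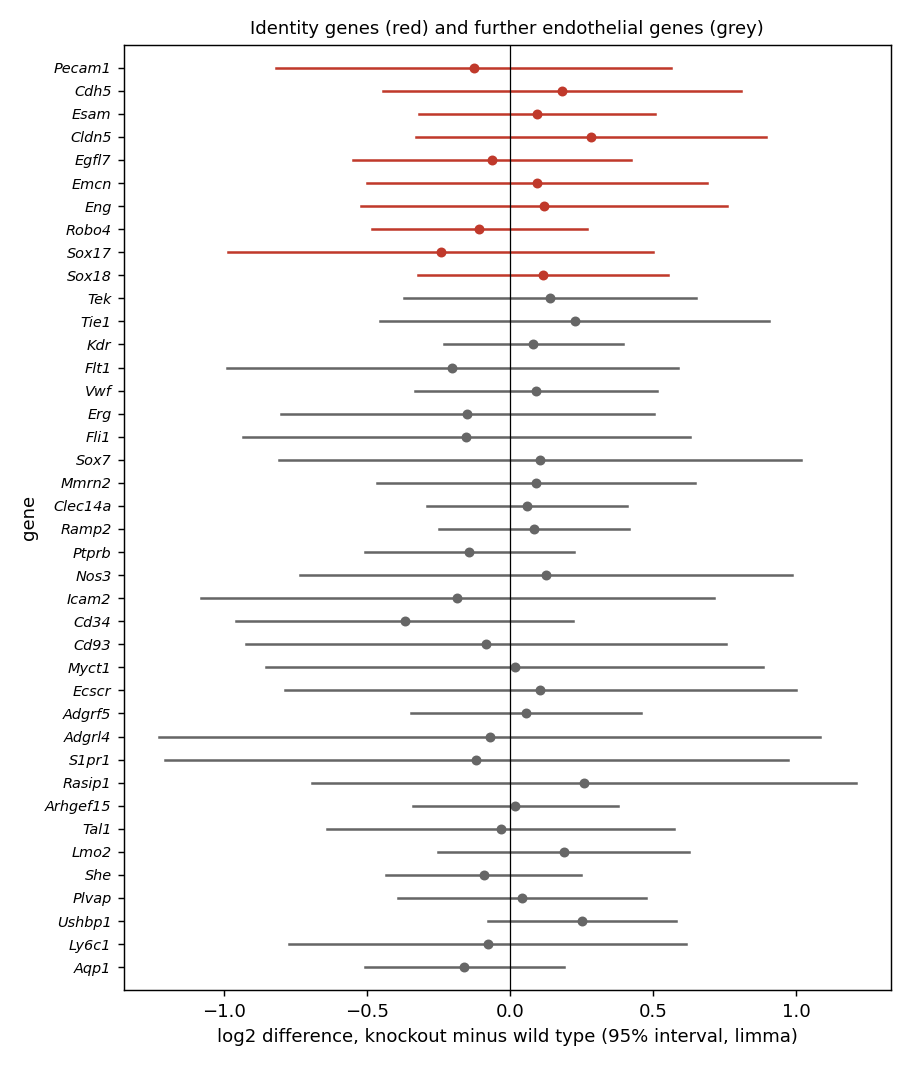
Knockout minus wild-type difference in log2 level with its 95% interval from limma, for the 10 identity genes (red) and 30 further endothelial genes (grey). Every interval includes 0; the points run from -0.37 for Cd34 to 0.28 for Cldn5.

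After scaling between arrays, most members varied together from ovary to ovary within each genotype. Each member was centred on its own mean over the 6 arrays. Averaged over the 10 members, the deviation was 0.34, -0.31 and 0.02 in the knockout ovaries, against -0.23, -0.07 and 0.24 in the wild-type ovaries. All 10 members were above their mean in knockout replicate 1 and all 10 in wild-type replicate 3, and none in knockout replicate 2 or wild-type replicate 1. Knockout replicate 3 had 5 of 10 above and wild-type replicate 2 had 2 of 10, Pecam1 and Sox17. The mean deviation thus took both signs within each genotype, and the genotypes overlapped.

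For several members the order of the wild-type ovaries changed when scaling between arrays was left out, while the order of the knockouts did not. Without scaling, all 10 members were still highest in knockout replicate 1 and lowest in knockout replicate 2 among the knockouts, and the mean deviation over the members was 0.41, -0.38 and 0.11 in the knockouts, against -0.06, -0.05 and -0.02 in the wild types. Wild-type replicate 3, the array with the lowest 75th percentile, was then the highest wild type for 4 members (Cldn5, Egfl7, Emcn and Eng) and the lowest for 3 (Pecam1, Cdh5 and Sox18), where scaling made it the highest for 9. Cdh5, for one, read 1659, 769.1 and 1353 intensity units in the knockouts, against 1033, 1034 and 992.7 in the wild types. Under quantile or median scaling, with normexp background correction and in the deposited series table, wild-type replicate 3 was the highest wild type for 9 members as well. Unscaled values also carry the brightness of each array, and scaled values, in every ovary, are levels relative to the rest of the array.

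Spread was also set beside that of all genes. The SD of the scaled values within genotypes ran from 0.20 for Robo4 to 0.46 for Sox17, against a median of 0.19 over all genes. Robo4 lay at the 50.3rd percentile of all genes and Sox17 at the 87.3rd. The other members lay between them, with Pecam1 at the 84.4th. Pecam1 and Sox17 also had the lowest levels of the members.

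**Figure D3:**
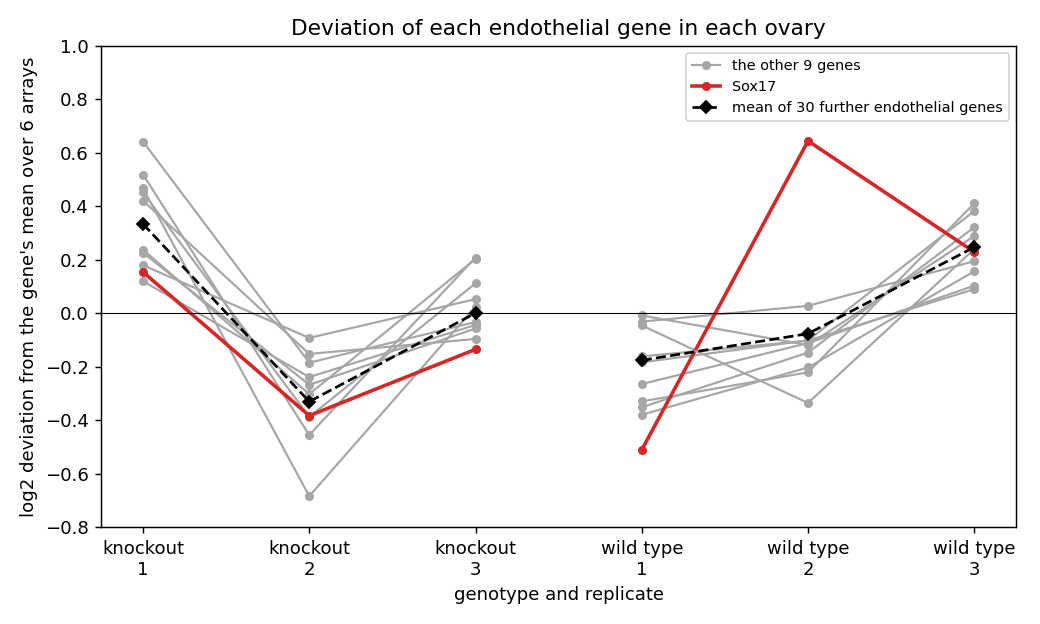
Deviation of each gene from its own mean over the 6 arrays (log2), by ovary, knockout at left and wild type at right; grey lines are 9 identity genes, the red line Sox17 and the dashed black line the mean of 30 further endothelial genes. The grey lines are high in knockout replicate 1 and low in knockout replicate 2, and high in wild-type replicate 3 after scaling (mean 0.24, against -0.02 without scaling), while Sox17 peaks at 0.64 in wild-type replicate 2.

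Correlations between members were computed over the 6 arrays for all 45 pairs. The median Pearson r was 0.75 (range -0.18 to 0.97) and the median Spearman rho 0.77 (range 0.09 to 0.94). An r of at least 0.7 was reached by 26 pairs, or 57.8%, against 9.12% of all pairs among 19206 genes, whose median r was 0.01. All pairs share the same 6 arrays, and genes of an array are not independent. Cldn5 and Sox18 had the highest r, 0.97 (rho 0.94), followed by Cdh5 with Eng at 0.94 (rho 0.94), Emcn with Eng at 0.94 (rho 0.89) and Egfl7 with Robo4 at 0.94 (rho 0.83). By the exact permutation test, two-sided, 15 pairs had an unadjusted p under 0.05 for r and 14 for rho. After Benjamini-Hochberg adjustment over the 45 pairs, 3 passed for r and 0 for rho. These were Cldn5 with Sox18, Egfl7 with Emcn (r 0.90, rho 0.94) and Eng with Sox18 (r 0.86, rho 0.94), each with an exact permutation p of 0.00278, adjusted 0.0417, for r. For rho each had an exact permutation p of 0.0167, adjusted 0.107. With the 2 arrays farthest from the median of the first gene left out, r was 0.92 for Cldn5 with Sox18, 0.77 for Egfl7 with Emcn and 0.89 for Eng with Sox18, each over 4 arrays.

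**Figure D4:**
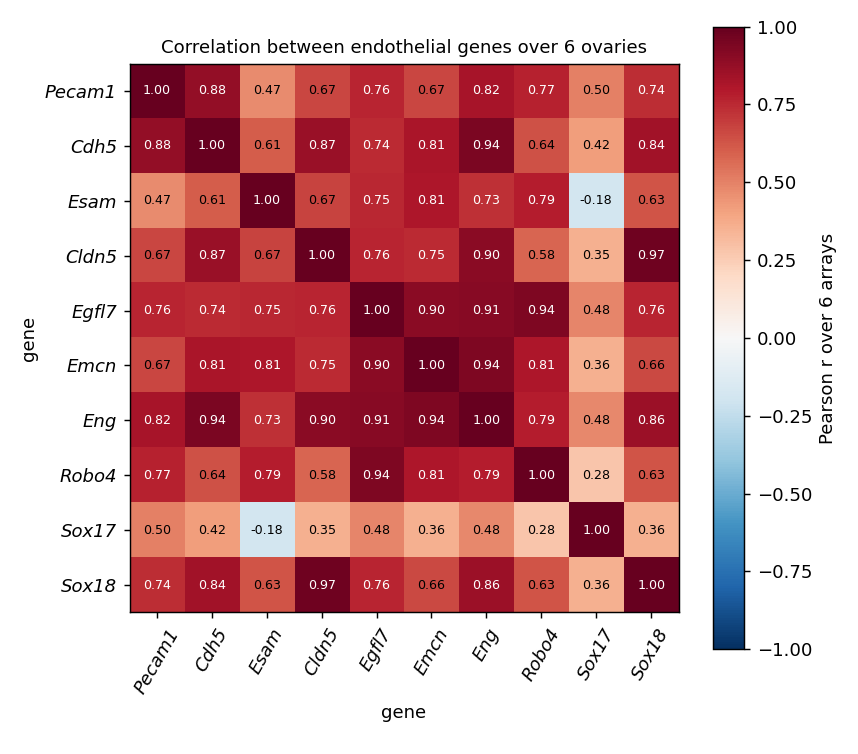
Pearson r over the 6 ovaries for every pair of the 10 identity genes; colour and printed value give r, from -1 (blue) to 1 (red). Of the 45 pairs, 26 reach 0.7, and the 9 pairs of Sox17 are pale, from -0.18 with Esam to 0.50 with Pecam1.

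The correlations were also computed within genotypes and slides. With each value taken as a deviation from its genotype mean the median r over the 45 pairs was 0.81, and as a deviation from its slide mean it was 0.70. Within the 4 arrays of slide 2 it was 0.86. The median lay between 0.69 (without knockout replicate 1) and 0.82 (without wild-type replicate 2) when any single array was left out, was 0.79 without knockout replicates 1 and 2 together, and was 0.74 with no scaling between arrays. Sox17 followed the others less closely. Its 9 pairs had a median r of 0.36, from -0.18 with Esam to 0.50 with Pecam1, and none reached 0.7. The 36 pairs of the other 9 members had a median r of 0.77, from 0.47 for Pecam1 with Esam to 0.97, and 26 reached 0.7. Sox17 with Esam rested on single ovaries: its r was 0.94 over the 4 arrays left when wild-type replicates 2 and 3, the ends of the Esam range, were set aside.

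A list of 30 further endothelial genes varied by sample much as the members did. All 30 were kept; 17 were higher and 13 lower in the knockout, 0 were called, 0 separated the genotypes, and the median difference was 0.03. Their mean deviation was 0.33, -0.33 and 0.00 in the knockouts, against -0.18, -0.08 and 0.25 in the wild types, and over the 6 arrays it correlated with the members' mean at r = 0.99 and rho = 1. Gene by gene, 20 of the 30 had an r of at least 0.7 with the members' mean (66.7%, median 0.85), against 2116 of 19196 other genes (median -0.14). Ecscr, an endothelial surface protein, was nearest at 0.99, with Nos3, the endothelial nitric oxide synthase, at 0.98 and Tie1, an orphan receptor of the angiopoietin system, at 0.94. Tie1 had -0.77, -1.84 and -1.35 in the knockouts, against -1.78, -1.54 and -1.32 in the wild types. The adhesion receptor Adgrf5 (r -0.66), the fenestral diaphragm protein Plvap (-0.43), the exchange factor Arhgef15 (-0.34) and the water channel Aqp1 (-0.17) did not follow. Vwf (0.23) and the brighter probes of Clec14a (0.20), Cd34 (0.30) and the VEGF receptor Kdr (0.30) did so weakly. Lmo2 (0.54) and She (0.60) were also under 0.7. The other kept Kdr probe, whose r was not computed, had 0.10, -0.34 and 0.19 in the knockouts, against 0.14, -0.23 and 0.52 in the wild types. Kdr differed by 0.08 (SE 0.13) by the brighter probe and by -0.16 (SE 0.23) by the other. By size of p the nearest to a genotype difference were Ushbp1 at 0.25 (SE 0.14) and the progenitor and endothelial sialomucin Cd34 at -0.37 (SE 0.24), both with a limma adjusted p of 1.00.

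Vessel subtypes and the members' relatives were described in the same way. Of 8 arterial genes, 3 were higher and 5 lower (median difference -0.16), 0 were called, and Bmx, a kinase, separated the genotypes (8.66% of probes did so), with -2.49, -2.43 and -2.48 in the knockouts against -2.29, -2.30 and -2.41 in the wild types. Efnb2, the arterial ephrin, differed by -0.28 (SE 0.16) and Sema3g by 0.34 (SE 0.23). Of 9 venous and capillary genes, 6 were higher and 3 lower (median 0.04), with Vcam1 at 0.34 (SE 0.42) and the apelin receptor Aplnr at 0.24 (SE 0.27). The arterial mean correlated with the members' mean at r = 0.86 (rho 0.89) and the venous and capillary mean at 0.76 (rho 0.71), which became 0.08 without the 2 arrays farthest from the median. For relatives of the members that are not restricted to endothelium, the mean of 14 kept of 15 listed cadherins, claudins, roundabout receptors, junctional adhesion molecules, SOX factors and others had an r of -0.70 (rho -0.54), which turned to 0.49 without those 2 arrays. Among them E-cadherin (Cdh1) differed by -0.48 (SE 0.28) and F11r, the epithelial and endothelial junctional adhesion molecule, by -0.32 (SE 0.16). The limma adjusted p was 1.00 for every gene named here.

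The 8 genes whose pattern was most like the members' mean, among 14391 with a curated name, were Col4a1 (r 0.997), Sorbs2 (0.993), Tagln2 (0.993), Bcl6b (0.993), Septin9 (0.991), Tpst2 (0.991), Ltbp1 (0.991) and Csk (0.990), all with rho 1 over the 6 arrays. They were picked for this likeness, which is a description. Col4a1 encodes a chain of basement-membrane collagen. It had 2.71, 1.57 and 2.12 in the knockouts, against 1.62, 1.92 and 2.54 in the wild types. Bcl6b, a transcriptional repressor, had -1.35, -2.71 and -1.94 in the knockouts, against -2.56, -2.33 and -1.54 in the wild types. Ltbp1, which binds latent TGF-beta, covered the widest span of the 8, with 1.93, -0.55 and 0.87 in the knockouts, against -0.14, 0.24 and 1.35 in the wild types. None of the 8 was in the list of further endothelial genes, and the limma adjusted p between genotypes was 1.00 for each.

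Markers of other cell types of the ovary were set beside the members. Mural cells, the pericytes and smooth muscle of the vessel wall, had a mean deviation over 11 genes of 0.39, -0.66 and 0.05 in the knockouts, against -0.02, -0.11 and 0.34 in the wild types (r with the members' mean 0.89, rho 0.94). Rgs5, a pericyte marker, had -0.35, -2.42 and -1.50 in the knockouts, against -1.74, -1.42 and -1.01 in the wild types. By genotype 2 mural genes were higher and 9 lower (median -0.13), 0 called, with Des at -0.44 (SE 0.27) and Ndufa4l2 at -0.50 (SE 0.38). Corpus luteum genes spread more: over 8 genes the mean was 1.01, -2.21 and 0.50 in the knockouts, against 0.19, 0.01 and 0.50 in the wild types (r 0.77, rho 0.89, and r 0.69 without the 2 farthest arrays). Lhcgr, the receptor for luteinizing hormone, had 0.53, -2.77 and -0.05 in the knockouts, against 0.21, -0.26 and 1.44 in the wild types. By genotype, 2 of 9 luteal genes were higher and 7 lower (median -0.52), 0 called, with Lhcgr at -1.22 (SE 0.91) and Scarb1, the receptor for high-density lipoprotein, at -0.47 (SE 0.38). Knockout replicate 2 had the lowest mean of the 6 ovaries in the identity, mural and luteal lists, and also in the further endothelial (-0.33), arterial (-0.26), venous and capillary (-0.12), lymphatic (-0.38) and macrophage (-0.44) lists. The part of luteal content in the members' values was not tested.

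**Figure D5:**
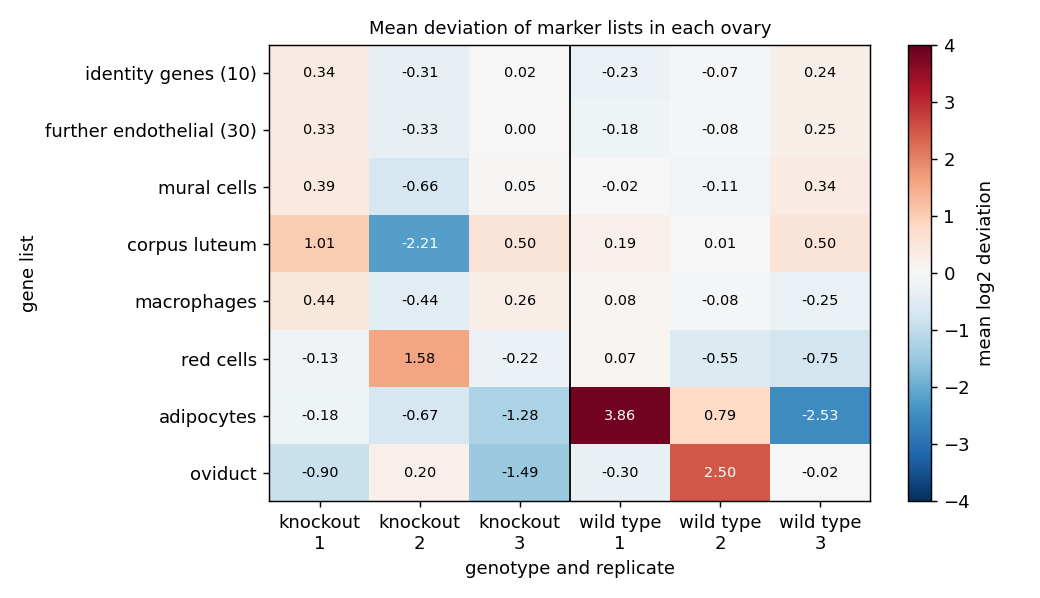
Mean log2 deviation of 8 marker lists in each ovary, each gene centred on its own mean over the 6 arrays; rows are lists, columns the 3 knockout and then the 3 wild-type ovaries, and colour runs from blue (low) to red (high). Identity, further endothelial, mural, luteal and macrophage rows share their high in knockout replicate 1 and low in knockout replicate 2. The red cell row peaks in knockout replicate 2, the adipocyte row in wild-type replicate 1 and the oviduct row in wild-type replicate 2.

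Cells that can share single members with endothelium were set beside them. Of 8 platelet genes, only Pf4 and Gp1bb were kept, both higher in the knockout (0.40, SE 0.28, and 0.46, SE 0.31), with 0 called; the defining Itga2b, Gp9, Gp1ba, Gp5, Ppbp and Treml1 were not kept. Macrophage genes had a mean of 0.44, -0.44 and 0.26 in the knockouts, against 0.08, -0.08 and -0.25 in the wild types, with 9 of 11 higher and 0 called, and r 0.53 with the members' mean, which turned to -0.53 without the 2 farthest arrays. Cd68 was the 1 macrophage gene of 11 that separated the genotypes (8.66% of probes did so) and the 1 with an unadjusted p under 0.05, with -2.13, -2.87 and -2.20 in the knockouts against -3.12, -3.39 and -2.97 in the wild types (difference 0.76, SE 0.23, limma p 0.014, adjusted 1.00). The next by p was C1qc at 0.29 (SE 0.27). The lymphatic mean had an r of -0.07 and a rho of -0.09 with the members' mean, and an r of -0.82 without the 2 farthest arrays. Of the lymphatic genes, 5 of 7 were kept, Prox1 and Reln were not, and all 5 were lower in the knockout, from -0.68 (SE 0.30) for Lyve1 and -0.35 (SE 0.37) for Flt4 to -0.0037 for Ccl21a, with 0 called. Red cell genes peaked in knockout replicate 2, with a mean of -0.13, 1.58 and -0.22 in the knockouts, against 0.07, -0.55 and -0.75 in the wild types. Of 6 red cell genes, 4 were higher and 2 lower in the knockout (median difference 1.00), with 0 called. By size of p the first were Hbb-b2 (1.48, SE 0.62) and Hbb-b1 (1.51, SE 0.66), near-identical globin copies whose probes may share signal. Hbb-b2 separated the genotypes, as 8.66% of probes did. It had -0.09, 2.01 and -0.15 in the knockouts, against -0.30, -1.24 and -1.13 in the wild types. The part of these cells in the members' values was not tested.

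Sox17, the member least like the others, was highest in the ovary with the highest oviduct gene levels. The 4 kept of 7 listed oviduct genes, a list added after the values were seen, had a mean of -0.90, 0.20 and -1.49 in the knockouts, against -0.30, 2.50 and -0.02 in the wild types. Ovgp1, the oviductal glycoprotein, had -3.09, -1.13 and -3.49 in the knockouts, against -1.66, 4.83 and -1.73 in the wild types. By the brightest probe of each gene all 4 were lower in the knockout, 0 called. By size of p the first were Ccdc153 (-1.93, SE 0.93) and Rsph1 (-0.52, SE 0.31). That Rsph1 probe was highest in wild-type replicate 3 (-1.51, against -1.87 in wild-type replicate 2), and its other kept probe was higher in the knockout (0.33, SE 0.53). Without wild-type replicate 2 the Sox17 difference was 0.02, and without wild-type replicate 1 it was -0.56, against -0.24 over all arrays. Among the knockouts, replicate 2 had the highest oviduct mean (0.20) and the lowest Sox17 level (-2.83). Knockout replicate 1 had the highest Sox17 level of the knockouts (-2.29), at an oviduct mean of -0.90. Whether oviduct RNA contributes to the Sox17 signal was not tested. Adipocyte genes (3 of 6 kept) peaked in another ovary, with a mean of -0.18, -0.67 and -1.28 in the knockouts, against 3.86, 0.79 and -2.53 in the wild types, with wild-type replicates 1 and 3 at its opposite ends. By size of p the first were Retn (-1.71, SE 1.67) and Cfd (-2.56, SE 2.52), 0 of 3 called. Among the 7 ovary markers they were Foxl2 (-0.19, SE 0.10) and Amh (0.39, SE 0.32), 0 called. That Foxl2 probe separated the genotypes, as 8.66% of probes did, while its other kept probe overlapped between them (-0.21, SE 0.23).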

How the data were processed

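The deposited scanner files hold linear spot intensity, made by the authors with Agilent Feature Extraction 10.7.1.1, with background subtraction and detrending inside each array, per the file headers. The submitters' processing notes name the same software. The deposited series table also holds intensity, in which all 6 columns had a median of 119.8. How it was normalized is not stated, and it served as an alternative.

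Of 43020 spots that were not controls, those marked as outliers (192 to 459 per array) were dropped, and repeated spots of a probe were averaged. Log2 values were scaled by the 75th percentile of each array. A probe was kept where all 3 arrays of either genotype had it well above background. A gene's kept probe with the highest mean stood for it. Probes were named by accession (26412), symbol (3854) or older symbol (735) through a RefSeq gene table, and 8428 kept the name in the file.

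Genotypes were compared in R 4.3.3 with limma 3.58.1 (lmFit, eBayes; two-sided), with Benjamini-Hochberg adjustment over all kept probes and genotype as the only term. Correlations used the exact permutation test over the 6 arrays. Both steps were tested on simulated data. Tables and plots used Python 3.11.15, pandas 2.3.3, numpy 2.4.6, scipy 1.17.1 and matplotlib 3.10.9. With 3 arrays per genotype, their number limits the precision.

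Alternatives were normexp with an offset of 50, quantile or median scaling, the series table, other background filters, slide or replicate number as a block, array weights and leaving out each array. The named genes are the members, Selenbp1, the 2 kept genes of each list with the smallest p (none passed), some ends of a list's range, and the 8 genes most like the members' mean. Among the 8, those given in full were named after their values were seen. So were Nos3, Ecscr, Tie1, Adgrf5, Plvap, Arhgef15, Aqp1, Vwf, Kdr, Clec14a, Lmo2, She, Rgs5, Bmx and Ovgp1. The members and lists were chosen with earlier results of these data known.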

Additional observations from a re-analysis of the deposited data

How the results depend on the processing

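No member was called in any of the 17 alternatives, at a lowest adjusted p of 0.521 (limma); an unadjusted p under 0.05 was met by 1 member without knockout replicate 2 and by 1 when wild-type replicate 1 was dropped. Of 171 recomputed member differences, 143 kept their direction and 28 turned. These counts overstate the checks made, since the other background filters and the replicate block cannot change a member's difference here. Slide as a fixed block and the shared slide alone gave the same differences, so their turns were counted under both. With array weights, Pecam1 was 0.024, Egfl7 0.084 and Robo4 0.027. With slide as a fixed block, and likewise on the shared slide only, Cdh5 was -0.013, Esam -0.19, Cldn5 -0.016, Emcn -0.36, Eng -0.26 and Sox18 -0.033, and the median was -0.26 over the members and -0.34 over the further endothelial genes. Slide as a random block put Emcn at -0.0084. Leaving out 1 array at a time, the differences ran from -0.39 to 0.18 for Pecam1, -0.032 to 0.45 for Cdh5, -0.051 to 0.24 for Esam, 0.03 to 0.45 for Cldn5, -0.19 to 0.11 for Egfl7, -0.049 to 0.32 for Emcn, -0.079 to 0.34 for Eng, -0.19 to 0.0097 for Robo4, -0.56 to 0.020 for Sox17 and -0.066 to 0.22 for Sox18, the members' median from -0.07 to 0.21 and the further endothelial median from -0.16 to 0.15. The causes were not tested.

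Over all probes the main count was 1 called gene. It was 0 with no filter, with slide as a fixed block, on the shared slide and with the replicate block, and 0 to 19 when an array was left out, with 19 without wild-type replicate 3. At an unadjusted p under 0.05 the counts of 0 stood beside 1805, 2389, 1604 and 1023 probes. Selenbp1 kept its direction in all 17 alternatives (-2.84 to -2.64); its adjusted p ran from 0.00212 to 0.557 and missed 0.05 in 8 of them. The replicate numbers share only a label: deviations of same-numbered samples correlated at -0.33, 0.30 and -0.03, and 1 of 3 knockouts correlated best with its own number. The replicate block left the members' median at 0.09, as it must, since each number holds 1 array of each genotype. The median correlation between members was 0.86 on the shared slide only, an alternative added after seeing the data, and 0.69 to 0.82 when an array was left out. With no scaling between arrays, likewise added, it was 0.74. The median over all pairs of genes was not computed for these alternatives.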
